A study of Mus musculus with 384 samples.

Results

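Cycling follicle cells were the sorted single cells of mouse back skin in which at least 4 of 22 cell cycle genes were present at a TPM of at least 10 (TPM is the length-corrected share of a gene among the transcripts of a cell, scaled to a total of 1000000). They were thus chosen by the measured TPM of those genes. Of 384 cells, 378 had at least 1000 genes at a TPM of at least 1 and were kept, and 69 of these, or 18.25% (exact 95% binomial interval 14.49 to 22.52, counting error only), met the rule. The rule list holds 13 genes of the mitotic programme (Mki67, Top2a, Ccnb1, Ccnb2, Ccna2, Cdk1, Birc5, Aurkb, Plk1, Bub1, Cenpf, Cdc20 and Ube2c) and 9 genes of DNA replication and nucleotide supply (Mcm2, Mcm3, Mcm4, Mcm5, Mcm6, Mcm7, Pcna, Rrm2 and Tyms). The 209 cells with at most 1 of the 22 genes served as comparison cells on the same plate and in the same gate, and 100 cells with 2 or 3 were used only where stated.

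The mice were 70 days old and labelled male. All of them carried Sox9-CreER, a Cre recombinase driven by Sox9 that acts after an inducer is given, the conditional allele NFIXfl/fl, and the reporter R26-YFPfl/fl, which marks cells in which Cre has acted. The cKO group was NFIBfl/+ and the dKO group NFIBfl/fl, so the cKO cells are not a wild type: they share the NFIX alleles and carry 1 conditional NFIB allele. Sorted cells were YFP-positive and integrina6-positive, and fell into a Sca-1-negative gate (the main one) or a Sca-1-positive gate. The Sca-1-negative cells came from 3 cKO and 2 dKO plates, and cKO plate 3 and dKO plate 2 also held Sca-1-positive cells.

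Hair follicle stem cells of the bulge are known for spending most of the hair cycle out of division, and the hair germ below it and the upper follicle above it hold other keratinocytes. As background, a cell that commits to division first loads MCM helicases on replication origins and raises its nucleotide supply, under E2F transcription factors. The clustered histone genes are transcribed mainly while DNA is being copied. Genes of the spindle, the kinetochore and cytokinesis come later and are held in check by the DREAM complex, which binds CHR elements at their promoters.

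No label says which animal a cell came from, and each genotype was therefore treated as 1 sample. Differences are therefore described by size, plate by plate, with no test and no p-value, and an SD over plates is given only to show their spread. Cells of cKO plates 1 and 2 and dKO plate 1 carried Xist RNA (plate means of 51.45, 59.85 and 44.48 TPM), and cKO plate 3 and dKO plate 2 carried RNA of Y-linked genes instead (summed means of 36.87 and 31.81 TPM), so 3 of the 5 plates stand against the label male. Each genotype thus held plates of both kinds, which cannot all come from 1 animal, but which plates share one is not known. Nfib RNA did not separate the genotypes in cycling cells: the cKO plates had means of 66.37, 64.6 and 66.15 TPM, the dKO plates 53.08 and 84.09 TPM. TPM over a whole gene does not read the floxed exons, so this checks nothing about the deletion.

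The label cycling held in full for only part of the set. Mki67 and Top2a, the defining proliferation markers, were both at 10 TPM or more in 24 of the 69 cells, and 37 cells had neither. By contrast, Mcm4 or Pcna reached 10 TPM in 61 cells, and 9 cells had all 4 markers. No mitosis gene at all was positive in 32 cells, 1 was positive in 9 cells and 2 in 2 cells, while 3 were positive in 3 cells, 4 to 9 in 7 cells and at least 10 in 16 cells. The number of rule genes per cell had a gap, with no cell at 11 to 13, 21 cells at 14 or more and 24 cells at only 4 or 5. Cells were therefore divided at 3 mitosis genes into 26 mitosis-led cells (37.68%, 26.29 to 50.17) and 43 replication-led cells (62.32%, 49.83 to 73.71). These names stand for ranges of a count and not for cell types or phases of the cycle. Mitosis-led cells held replication genes as well, with Mcm7 positive in 19 of 26 and Tyms in 21 of 26. The replication-led cells are named by their genes, since these data do not show that they went on to divide.

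**Figure D1:**
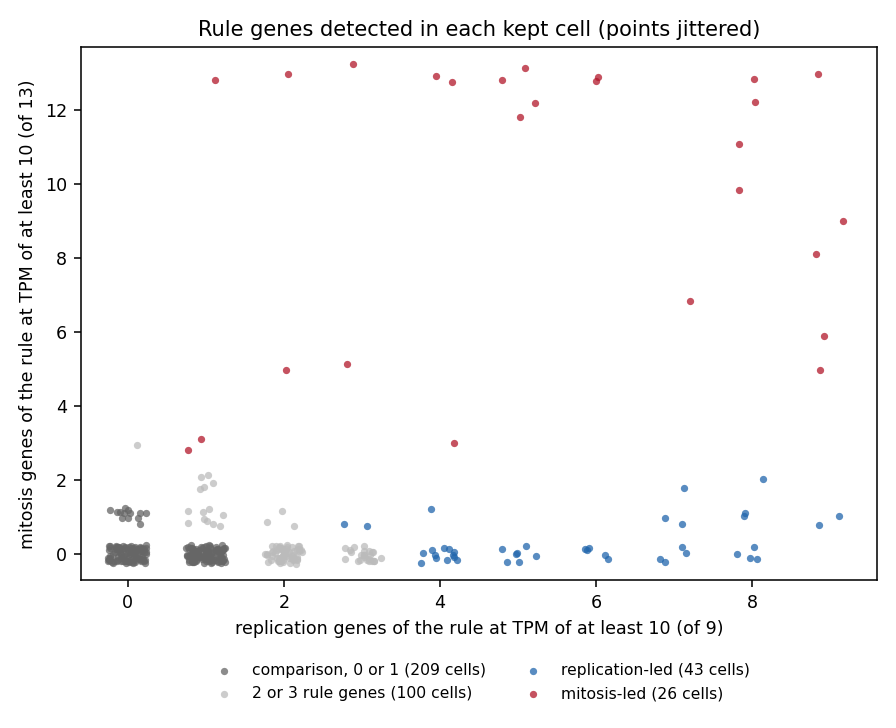
Each point is a kept cell, placed by how many of the 9 replication genes (horizontal axis) and 13 mitosis genes (vertical axis) of the rule reached 10 TPM, with a small random shift so that points do not cover each other. The 43 replication-led cells lie along the floor of the plot, and the 26 mitosis-led cells are spread from 3 to 13 mitosis genes.

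The rule genes themselves are a description, because they chose the cells. Pcna, the sliding clamp of DNA polymerase, was positive in 53 of 69 cycling cells, Mcm7 in 52, Mcm2 in 49 and Tyms, which makes thymidylate, in 45. Pcna was also the rule gene most often seen in comparison cells, at 10 TPM or more in 48 of 209. Mki67 averaged 76.82 TPM in mitosis-led cells and 1.352 TPM in replication-led cells, against 0.3208 TPM in comparison cells. Mcm2 ran the other way between the subsets, with 62.06 TPM in replication-led and 31.38 TPM in mitosis-led cells. Rrm2, the regulated subunit of ribonucleotide reductase, was positive in 17 of 26 mitosis-led but 5 of 43 replication-led cells. At the edge of the rule, 16 cells had exactly 4 positive genes and 33 had exactly 3. Those just inside had a median of 5043 detected genes and a median rule-gene sum of 152.4 TPM, and those just outside 5050 genes and 89.85 TPM.

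Cycling cells were found on every plate and in both gates. In the Sca-1-negative gate they made up 13 of 71 cells on cKO plate 1 (18.31%), 6 of 47 on cKO plate 2 (12.77%), 17 of 65 on cKO plate 3 (26.15%), 14 of 93 on dKO plate 1 (15.05%) and 11 of 61 on dKO plate 2 (18.03%). By genotype this was 36 cells or 19.67% of cKO (14.17 to 26.18) and 25 cells or 16.23% of dKO (10.79 to 23.02), intervals that overlap widely, and without cKO plate 3 the cKO share was 16.1%. Mitosis-led cells took 7.104% of cKO cells (13 cells) and 7.143% of dKO cells (11 cells), and replication-led cells 12.57% (23 cells) and 9.091% (14 cells). The plates differed in the mix. cKO plate 1 held 9 mitosis-led and 4 replication-led cells and cKO plate 3 held 3 and 14, while dKO plate 1 held 7 of each. In the Sca-1-positive gate 6 of 22 cKO cells (27.27%, 10.73 to 50.22) and 2 of 19 dKO cells (10.53%, 1.301 to 33.14) were cycling. None of those 19 dKO cells was mitosis-led, which allows a share of up to 15.79%.

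Cycling cells carried more RNA and more detected genes than their neighbours on the plate. The median number of genes exceeded that of comparison cells by 1305, 946.5 and 380 genes on cKO plates 1, 2 and 3, and by 1009 and 582 on dKO plates 1 and 2 (mean 844.5, SD 365.4 over 5 plates). Endogenous RNA relative to the ERCC spike-in, a fixed set of added control RNAs, was 1.832-fold, 1.391-fold and 1.191-fold that of comparison cells on the cKO plates and 1.527-fold and 1.518-fold on the dKO plates. The ratio rests on an equal amount of spike-in per well, which the labels do not state. Median genes per cell were 6157 in mitosis-led, 5414 in replication-led and 4883 in comparison cells. The rule asks for detected genes, so a cell with more detected genes meets it more easily, and the part of this in the results below was not tested. Comparison cells matched to cycling cells on detected genes, 1 for each, are set beside the results it touches most. Matching left a difference of 746 genes on cKO plate 1, which stayed poorly matched, and of −16 to 212.5 genes on the other 4 plates.

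**Figure D2:**
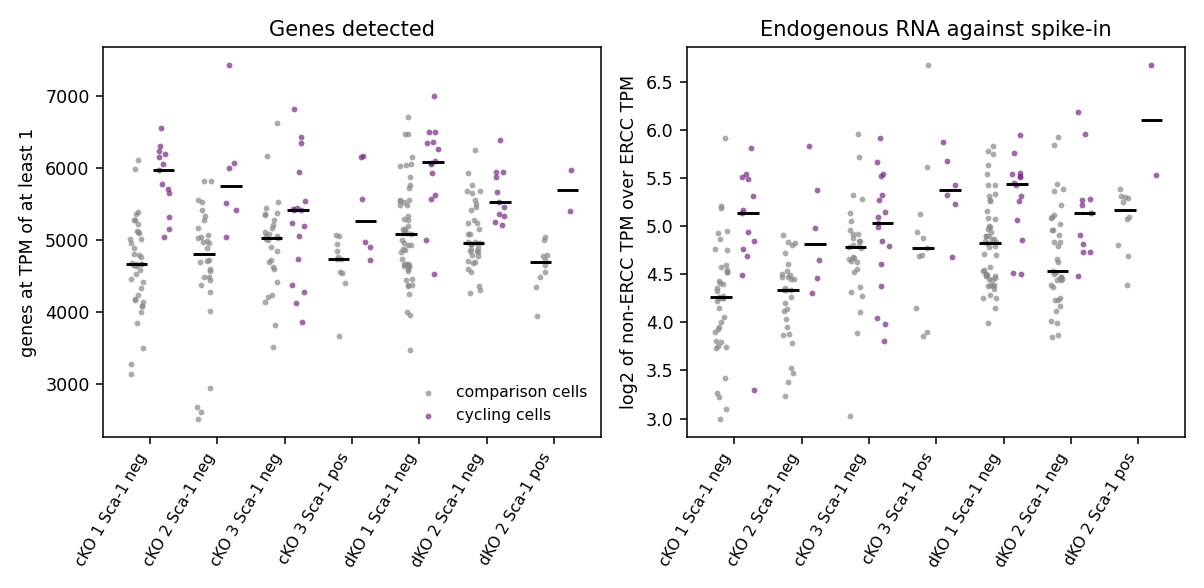
Points are single cells by plate and gate, grey for comparison and purple for cycling cells, with the median as a bar; the left axis counts genes at a TPM of at least 1 and the right axis is the log2 ratio of non-ERCC to ERCC TPM. Cycling medians lie above comparison medians in all 7 strata, by 380 to 1305 genes in the Sca-1-negative gate.

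For genes outside the rule list, each plate of the Sca-1-negative gate was compared within itself, and the 5 plates were weighted equally. Measured were 6925 genes with a mean over plates of at least 5 TPM in all kept cells of both gates, cycling cells included. A gene nearly absent from comparison cells was therefore measured mainly through cycling cells, which favours upward calls, in the gene lists below as well. A gene was called when the ratio of mean TPM (1 TPM added) was at least 2 or at most 0.5 with the same direction on every plate, in the mean of TPM and in the mean of log2(TPM + 1). This called 2.05% of the measured genes higher in cycling cells and 1.52% lower. With 1.5-fold in place of 2-fold, the rule used for members of gene lists, 4.65% of all measured genes were higher and 2.15% lower. The median log2 ratio of all measured genes was −0.01. Of the higher genes, 48 (33.8%) belonged to a gene list and 13 (9.15%) were clustered histone genes. Of the lower genes 6 (5.71%) belonged to a list, and 76 (72.4%) stayed below 20 TPM in both kinds of cell.

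**Figure D3:**
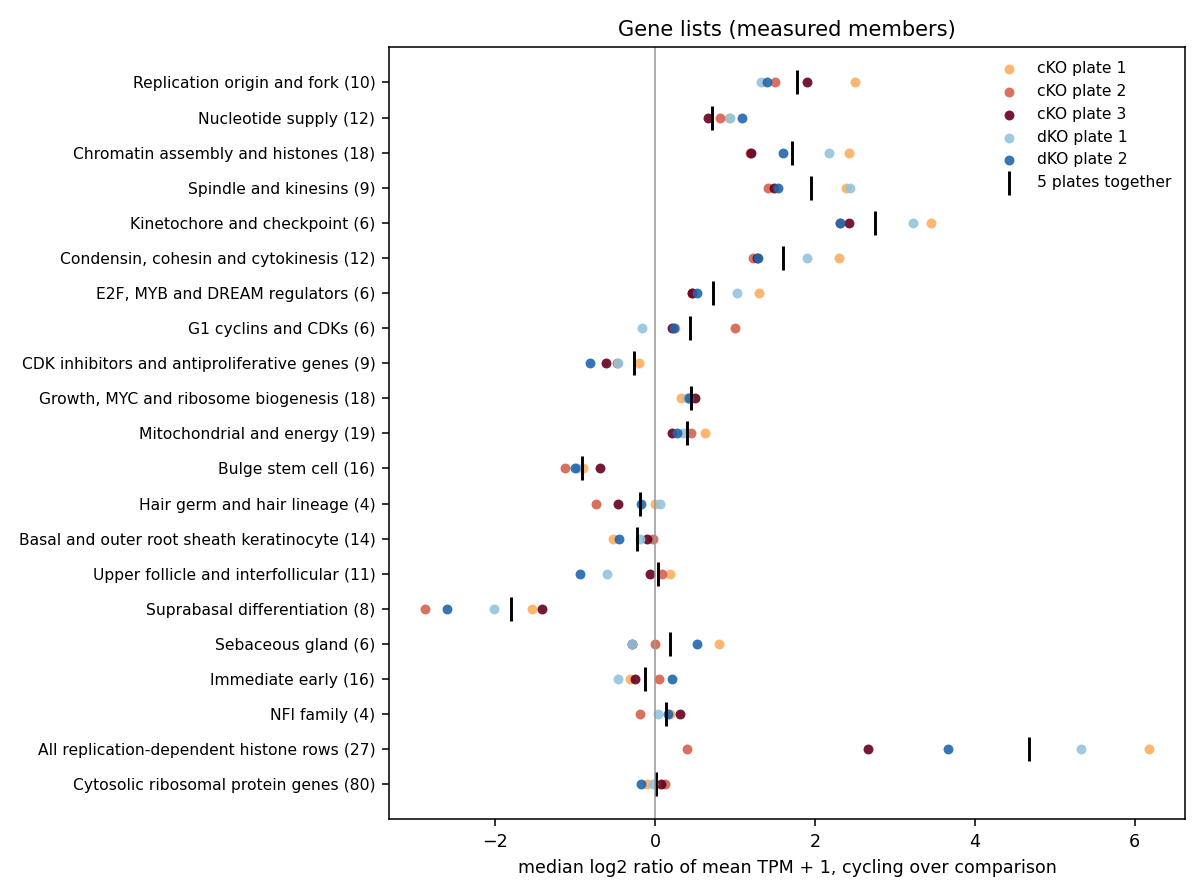
Each row is a gene list with at least 4 measured members (their number in brackets), each coloured point is the list's median log2 ratio of mean TPM + 1 on a plate, and the black tick is the median over the 5 plates together. The replication, spindle and kinetochore lists lie above 0 on all 5 plates, the bulge and suprabasal lists below 0, and histone medians spread from 0.40 on cKO plate 2 to 6.18 on cKO plate 1.

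Most of the measured genes that copy DNA were higher in cycling cells on every plate. Of 37 genes of the replication origin and fork, 10 were measured and 9 passed the 1.5-fold rule upwards and none downwards (median log2 ratio 1.78). The rest of the 37 were below the 5 TPM filter. Members such as Pole reached it mainly through cycling cells, so the share passing upwards was partly set by the filter. Pole, the catalytic subunit of the leading-strand polymerase, averaged 48.14, 1.42, 25.93, 15.47 and 33.46 TPM in cycling cells of cKO plates 1 to 3 and dKO plates 1 and 2, against 0.1223 to 1.4 TPM in comparison cells. Its log2 ratio was 4.01 (SD over plates 1.38), and cKO plate 2 was the low plate. Lig1, which seals the fragments of the lagging strand, stood at 29.61 against 2.966 TPM (log2 ratio 2.95, SD 1.09), and it was positive in 58% of cycling and 7.383% of comparison cells, as means over plates. Pold1, of the lagging-strand polymerase, stood at 42.47 against 6.971 TPM and Gins2, of the replicative helicase, at 20.7 against 4.37 TPM. Against comparison cells matched on detected genes, all 10 members were past the rule with a median of 1.93, but the genes were measured by the same filter.

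Nucleotide supply differed less as a group: 5 of 12 measured genes were higher and none lower (median 0.71). The members past the rule stand close to the DNA precursors. Tk1, thymidine kinase, averaged 26.19 TPM against 1.887 TPM (log2 ratio 3.24, SD 0.90), Rrm1, the large subunit of ribonucleotide reductase, 22.55 against 3.227 TPM (2.48, SD 0.84), Dut, which clears dUTP, 14.34 against 3.903 TPM, and Dctpp1, which clears dCTP, 17.74 against 5.786 TPM. Topbp1, a scaffold of the replication checkpoint, was the member past the rule among the 2 measured genes of replication stress and repair. It averaged 23.55 against 7.844 TPM, was positive in 65.17% against 18.1% of cells, and averaged 22.33 TPM in replication-led and 24.48 TPM in mitosis-led cells.

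Histone RNA divided the cycling cells, and among them only mitosis-led cells held the high sums. Clustered histone genes are transcribed mainly while DNA is being copied, so the subset names do not place cells in a phase. Over the 71 clustered histone genes (Hist1h to Hist4h), a sum chosen after its values were seen, 17 of 26 mitosis-led cells exceeded 1000 TPM (65.38%, 44.33 to 82.79). None of the 43 replication-led cells did (up to 6.977% allowed), the highest being at 501.3 TPM, and none of the 209 comparison cells (up to 1.435% allowed), the highest being at 897.7 TPM. Among the 100 cells with 2 or 3 rule genes, 2 exceeded it. The median sum was 10520 TPM in mitosis-led cells (147.1 to 30950), 139.3 TPM in replication-led cells and 197 TPM in comparison cells. These cells were not spread evenly: 7 were on cKO plate 1, 5 on dKO plate 1, 2 in each gate of cKO plate 3, 1 on dKO plate 2 and none on cKO plate 2. In the gene comparison 13 of 27 measured histone genes were called at 1.5-fold, none downwards, with a median log2 ratio of 4.68. Within mitosis-led cells 26 of 27 were higher, where 6.37% of all measured genes were higher and 5.53% lower. Within replication-led cells none was higher and 3 were lower, where 2.41% and 1.94% of all genes were.

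**Figure D4:**
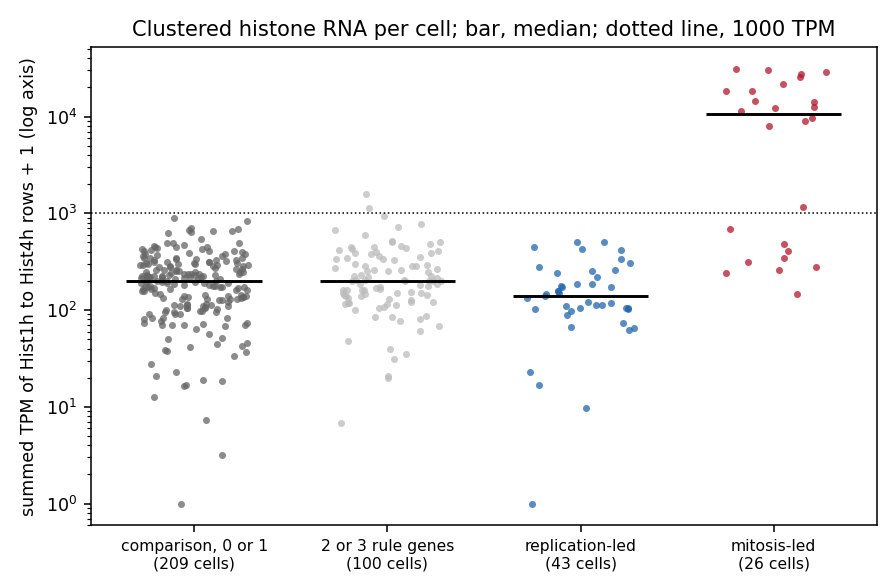
Each point is a kept cell and the vertical log axis is the summed TPM of 71 clustered histone genes plus 1, with the median of each group as a bar and a dotted line at 1000 TPM. The 17 mitosis-led cells above the line are separated from every replication-led and comparison cell, and the other mitosis-led cells lie among them.

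Of the 12 genes with the highest ratios, 9 are clustered histone genes. Hist1h2ap, an H2A gene at chr13:21833026-21833507 of GRCm38, averaged 1580, 4.422, 64.62, 568.7 and 197.9 TPM in cycling cells of cKO plates 1 to 3 and dKO plates 1 and 2, and 0.8295 to 3.997 TPM in comparison cells. Its log2 ratio of 7.28 had an SD over plates of 3.05, and cKO plate 2, with a single mitosis-led cell, gave nearly none of it. The others were Hist2h3c2 (7.06), Hist1h2ab (6.18), Hist1h3i (6.07), Hist1h3b (5.98), Hist2h3b (5.80), Hist1h2ak (5.62), Hist1h3g (5.12) and Hist1h3h (4.68). The coding sequences of these copies are nearly identical, so how reads were divided among them is uncertain and the sum is the firmer value. Histone messages of this class mostly lack a poly(A) tail, while Smart-seq2 primes on poly(A), so their TPM need not follow their true amount.

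The wider list of chromatin assembly and histones had 14 of 18 measured genes higher and none lower (median 1.71). Uhrf1, which recruits the maintenance DNA methyltransferase to new DNA, averaged 88.07, 17.83, 22.22, 50.32 and 55.56 TPM in cycling cells of the 5 plates, each above the 0.9518 to 6.869 TPM of comparison cells. It was higher in both subsets, at 79.32 TPM in mitosis-led and 28.15 TPM in replication-led cells. H2afx, the variant that marks DNA breaks when phosphorylated, stood at 105.5 TPM in mitosis-led but 3.309 TPM in replication-led cells. The linker histone gene Hist1h1e showed the same split, with 1036 and 66.21 TPM, against an equal-weight comparison mean of 67.14 TPM.

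The kinetochore and spindle lists had the highest medians outside the histones among lists with at least 4 measured genes. The 1.5-fold rule was passed upwards by 8 of 9 measured spindle and kinesin genes (median 1.95). Kinetochore and checkpoint genes passed it in 4 of 6 (median 2.75), and condensin, cohesin and cytokinesis genes in 9 of 12 (median 1.61). None passed downwards. These lists hold 28, 26 and 28 genes, and the rest were below the 5 TPM filter. Members such as Kifc1 and Cdca8 reached 5 TPM mainly through cycling cells. The share passing upwards was thus partly set by the filter. Racgap1 (chr15:99620496-99651656, minus strand), part of the centralspindlin complex that places the cleavage furrow, averaged 160.3, 49.1, 29.4, 84.34 and 28.56 TPM over the 5 plates in cycling cells. Comparison cells had 0.01553 to 3.263 TPM, so the plate means did not overlap (log2 ratio 5.06, SD 1.51). On every plate the lowest cycling cell was at 0, and on cKO plates 2 and 3 and dKO plate 2 so was the median, while the highest cell reached 519.5 TPM. Kifc1, a minus-end motor that focuses spindle poles, averaged 25.94 against 0.1297 TPM, and Cdca8 (borealin), of the chromosomal passenger complex, 36.89 against 0.7673 TPM.

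The other named members of these lists were higher on all 5 plates as well. Prc1, which bundles midzone microtubules, averaged 39.55 against 1.109 TPM, Tacc3, which stabilises spindle fibres, 26.68 against 1.395 TPM, and Cenpa, the centromeric histone H3 variant, 39.77 against 0.9638 TPM. Bub1b, of the spindle checkpoint, averaged 25.65 against 0.509 TPM, Anln, of the contractile ring, 23.48 against 0.9083 TPM, and Cdca3 27.73 against 0.8443 TPM. Hjurp, the chaperone that deposits Cenpa, averaged 33.83 against 12.58 TPM, a smaller ratio from a higher comparison level. A pair of genes reached the replication-led cells as well. Stmn1, which destabilises microtubules, averaged 201.7 TPM in mitosis-led and 55.29 TPM in replication-led cells, and its plate means ran from 66.96 to 185.3 TPM against 6.497 to 13.71 TPM in comparison cells. Ncapd2, a condensin subunit, averaged 25.17 TPM in replication-led cells and 126.2, 56.64, 49.54, 97.95 and 61.15 TPM over the plates, against 0 to 6.697 TPM.

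Promoters were searched for the motifs named above. CHR (TTTGAA) was searched on both strands, in windows of 300 bases with 250 before the RefSeq transcript start and 50 after it. It was present in 18 of 25 spindle and kinesin promoters (72%), 12 of 22 kinetochore promoters (54.5%) and 13 of 23 condensin, cohesin and cytokinesis promoters (56.5%). It was present in 5 of 28 origin and fork promoters (17.9%), in 18.1% of all 27025 promoters and in 11.4% of those of measured genes. E2F matches were searched on both strands as TTCCCGC, as its variant TTCGCGC, as a form with TTGCCGC and as a form with TTGGCGC, the last of which can overlap the reverse strand of the NF-Y motif CCAAT. E2F matches were present in 17 of 28 origin and fork promoters (60.7%) and 10 of 13 promoters of replication stress and repair (76.9%), in 8 of 23 condensin, cohesin and cytokinesis promoters (34.8%) and in 5 of 25 spindle promoters (20%), beside 9.69% of all promoters and 18% of those of measured genes. Of the higher genes 93 had a promoter in the table, of which 26 held a CHR (28%) and 32 an E2F match (34.4%). Of the lower genes 70 had one, with a CHR in 9 (12.9%) and an E2F match in 5 (7.14%). The palindromic motif of NFI proteins was in no promoter of the called genes and in 0.0407% of all promoters. A match describes letters in a window and is not a measured site, and these lists were written by function, not by motif.

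The stretches below, from RefSeq and GRCm38.p6, run 5′ to 3′ from 170 bases before the transcript start to 30 after it. They show the 3 named genes outside the histones with the highest ratio and a CHR in that stretch, and the next 2 with an E2F match and no CHR there. Capitals mark the CHR in Racgap1 (chr15:99651627-99651826, minus strand), Kifc1 (chr17:33890604-33890803, minus strand) and Cdca8 (chr4:124936888-124937087, minus strand). In Uhrf1 (chr17:56303167-56303366, plus strand) and Rrm1 (chr7:102441525-102441724, plus strand) they mark the E2F match.
Racgap1: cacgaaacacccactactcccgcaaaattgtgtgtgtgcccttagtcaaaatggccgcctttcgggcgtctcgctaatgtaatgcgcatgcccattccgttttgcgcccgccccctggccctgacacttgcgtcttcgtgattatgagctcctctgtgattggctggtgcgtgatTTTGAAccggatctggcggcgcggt
Kifc1: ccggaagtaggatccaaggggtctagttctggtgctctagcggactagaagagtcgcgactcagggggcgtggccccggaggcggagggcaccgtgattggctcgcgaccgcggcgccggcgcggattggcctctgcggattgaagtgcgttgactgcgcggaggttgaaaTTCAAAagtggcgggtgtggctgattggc
Cdca8: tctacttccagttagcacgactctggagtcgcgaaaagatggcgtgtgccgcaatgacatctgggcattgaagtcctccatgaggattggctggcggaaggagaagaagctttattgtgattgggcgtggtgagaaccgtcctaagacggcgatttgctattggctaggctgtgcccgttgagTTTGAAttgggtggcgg
Uhrf1: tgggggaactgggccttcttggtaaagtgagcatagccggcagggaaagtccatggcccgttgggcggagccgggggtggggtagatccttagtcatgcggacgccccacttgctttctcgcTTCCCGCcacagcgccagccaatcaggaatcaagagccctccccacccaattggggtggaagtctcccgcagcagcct
Rrm1: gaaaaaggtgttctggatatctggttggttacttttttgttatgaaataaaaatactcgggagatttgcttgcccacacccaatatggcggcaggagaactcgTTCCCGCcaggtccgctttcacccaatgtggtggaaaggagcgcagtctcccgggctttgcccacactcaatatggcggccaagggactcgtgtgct
The CHR began 6, 2 and 14 bases after the start in Racgap1, Kifc1 and Cdca8. CCAAT, the NF-Y motif, occurred on either strand in all 5 stretches, 1 time in Racgap1, 3 times in Kifc1 and 4 times in Cdca8. In the longer windows searched above, CCAAT was present in 37.9% of all promoters and 37.7% of those of measured genes. It was present in 58.1% of promoters of the higher genes and 28.6% of those of the lower genes. The count in these 5 stretches, chosen for other motifs, is thus no result about CCAAT. The E2F match lay 48 bases before the start in Uhrf1 and 67 in Rrm1. The Racgap1, Kifc1 and Cdca8 RNAs were those of mitosis-led cells, with 180, 63.16 and 97.96 TPM against 1.448, 3.158 and 2.781 TPM in replication-led cells. Uhrf1 and Rrm1 were higher in both subsets. These 5 stretches were chosen for their ratio and motif, so they do not show which motif goes with which subset. Of matched promoters of genes past the 1.5-fold rule upwards in mitosis-led cells, 20.4% held a CHR and 28.9% an E2F match. For genes past it in replication-led cells the shares were 14.8% and 31.1%, and the difference was not tested.

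Among regulators, 3 of 6 measured E2F, MYB and DREAM genes passed the 1.5-fold rule upwards and none downwards (median 0.73). Foxm1, the transcription factor that drives mitotic genes, averaged 71.7, 13.36, 9.37, 32.99 and 22.5 TPM over the 5 plates against 0 to 2.327 TPM in comparison cells, and 77.97 TPM in mitosis-led against 0.2557 TPM in replication-led cells. Rbbp4, a histone chaperone shared with the DREAM core, stood at 26.94 against 13.28 TPM, and Tfdp1, the partner of E2F proteins, at 18.36 against 9.276 TPM. Of 6 measured G1 cyclins and CDKs only Cdk4, the partner of D-type cyclins, was past the rule, at 98.12 against 52.38 TPM (log2 ratio 0.89, SD 0.45).

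Of 9 measured CDK inhibitors and antiproliferative genes, 2 were lower and none higher (median −0.26). Gas1, named for its expression in growth-arrested cells, averaged 8.958, 1.873, 9.186, 22.33 and 13.72 TPM in cycling cells of the 5 plates, against 26.89, 24.56, 16.76, 27.4 and 42.03 TPM in comparison cells, lower on each plate (log2 ratio −1.22, SD 1.08). Btg1, an antiproliferative cofactor, stood at 5.573 against 10.27 TPM, with a narrow spread over plates (−0.78, SD 0.19). In mitosis-led cells 2 of the 9 were higher, Ccng2, an atypical cyclin, and Cdkn1b, the inhibitor p27, and 1 was lower, Gas1. Ccng2 stood at 11.75 against 6.177 TPM and Cdkn1b at 21.76 against 13.25 TPM there. In replication-led cells none was higher and 2 were lower, Btg1 and Ccng2, the latter at 0.5195 against 5.119 TPM. These genes were named after their values were seen, and the difference between the subsets was not tested.

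Growth and energy genes differed little. Of 18 measured genes of growth, MYC and ribosome biogenesis, 3 were higher and none lower (median 0.45), and of 19 mitochondrial and energy genes 2 were higher and none lower (median 0.40). The medians came to 0.19 and 0.11 against matched comparison cells. Ran, the GTPase of nuclear transport and spindle assembly, averaged 42.73 against 17.1 TPM, its partner Ranbp1 25.55 against 7.669 TPM, and Nop56, of box C/D ribonucleoproteins, 48.81 against 25.33 TPM. Ndufa4, of the respiratory chain, stood at 44.15 against 23.89 TPM and Cs, citrate synthase, at 48.95 against 31.83 TPM. Of 80 measured cytosolic ribosomal protein genes, none passed the rule in either direction (median 0.02).

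Most cycling cells of both gates held RNA of the keratins Krt5, Krt14 and Krt15, and the bulge list was lower in the Sca-1-negative gate. Krt5 reached 10 TPM in 98.36% of 61 Sca-1-negative cycling cells and 96.28% of 188 comparison cells, Krt14 in 95.08% and 75.53%, and Krt15, a bulge keratin, in 95.08% and 87.23%. Mean Krt15 was 328 TPM in cycling and 410.4 TPM in comparison cells. Other bulge markers were found in fewer cycling cells, Sox9 in 52.46% against 75.53% and Cd200 in 24.59% against 38.3%. Cd34 was found in 18.03% against 28.72% and Lgr5 in 13.11% against 19.68%, and the shares were not tested. Comparison cells matched on detected genes had Cd200 in 24.59%, Cd34 in 21.31% and Lgr5 in 13.11%. For Cd200 and Lgr5 these equal the shares of cycling cells, and for Cd34 the share is close. Of 16 measured bulge genes, 3 were lower and none higher (median −0.92). Sox9, a transcription factor of these stem cells whose promoter also drives the Cre, averaged 22.59, 19.57, 22.01, 28.37 and 9.493 TPM in cycling cells of the 5 plates against 50.14, 62.62, 32.99, 32.53 and 33.41 TPM in comparison cells (log2 ratio −1.02, SD 0.66). All plates were lower, dKO plate 1 only slightly. Lhx2, a factor that keeps bulge cells undifferentiated, stood at 4.1 against 13.36 TPM (−1.49, SD 1.09), and Tbx1 at 10.66 against 35.08 TPM. Against comparison cells matched on detected genes no bulge gene passed the rule and the list's median was −0.39.

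The share of cycling cells differed with position markers. Among Sca-1-negative cells with Cd34, the surface marker of the bulge, 11 of 91 were cycling (12.09%, 6.191 to 20.6). Among cells with Krt79, a keratin of the upper follicle, and without Cd34, 18 of 63 were (28.57%, 17.89 to 41.35), and among cells with neither 32 were (17.49%, 12.28 to 23.78). The 3 intervals overlap, and the difference was not tested. The median numbers of detected genes were 4785, 5334 and 5031, in the order of the shares. The order was not that of the mitosis-led cells, of which 4, 4 and 16 were in these classes. Krt79 was found in 14 of 37 replication-led cells (37.84%), 5 of 24 mitosis-led cells and 28 of 188 comparison cells (14.89%). Matched comparison cells had it in 16 of 61 (26.23%). The mean level ran the other way, at 43.14 TPM in cycling, 83.41 TPM in comparison and 150.9 TPM in matched cells. On dKO plate 1 Krt79 was found in 1 of 7 cells of each subset and in 5 of 14 matched cells.

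Suprabasal differentiation genes were the lowest list, with 2 of 8 measured genes lower, none higher and a median of −1.80. Here matching did not shrink the difference: 5 of 8 were lower and the median was −2.08. Krtdap, a keratinocyte differentiation protein, averaged 10.26, 0, 47.78, 110.6 and 18.16 TPM in cycling cells against plate means of 28.87 to 267.3 TPM in comparison cells, lower on every plate (log2 ratio −2.03, SD 1.55). Tgm5, a transglutaminase that crosslinks the envelope of differentiating cells, stood at 9.696 against 34.97 TPM. Krt10, a keratin of cells that have left the basal layer, was found in 0 of 24 mitosis-led and 2 of 37 replication-led cells, against 38 of 188 comparison cells and 18 of 61 matched ones, which was looked at after its values were seen. The count of 0 in 24 allows a share of up to 12.5%. In the Sca-1-positive cells of cKO plate 3 the same list had a median of −4.88, with none of 8 members above 0.

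The remaining identity lists showed few calls. None of 4 measured hair germ and hair lineage genes passed (median −0.19), with Gata3 at 43.28 against 66.49 TPM and Axin2 at 21.12 against 24.45 TPM. Of 14 basal and outer root sheath genes 1 was lower and none higher (median −0.23), Dst, a hemidesmosome linker, at 65.8 against 127.4 TPM with all plates alike (log2 ratio −0.94, SD 0.21). Of 11 upper follicle and interfollicular genes 1 was higher and none lower (median 0.04), Ifitm3, an interferon-induced membrane protein, at 181.3 against 110.2 TPM. None of 6 sebaceous gland genes passed (median 0.18), with Acsbg1 at 45.34 against 28.39 TPM and Mgst1 at 16.58 against 16.53 TPM. None of 16 immediate early genes, which respond to stress of tissue dissociation among other stimuli, passed (median −0.12), with Fos at 356.7 against 470.4 TPM and Dusp1 at 366.4 against 445.6 TPM. No NFI family gene passed either (median 0.14). Nfia stood at 79.78 against 70.28 TPM, Nfib at 66.86 against 77.17 TPM, Nfic at 52.66 against 36.22 TPM and Nfix at 42.97 against 40.26 TPM. In mitosis-led cells Nfic passed the 1.5-fold rule upwards, at 64.84 against 39.37 TPM, where 6.37% of all measured genes did. No NFI gene passed in replication-led cells. Against matched comparison cells 1 NFI gene passed upwards, as did 250 of all 6925 measured genes.

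The other genes named for the lowest ratios, among those with at least 20 TPM and 25% positive cells in the higher group, were of mixed function. Ctgf, a matricellular target of YAP, averaged 8.44, 0, 27.7, 7.358 and 2.019 TPM in cycling cells of the 5 plates against 43.39, 25.82, 42.95, 17.41 and 77.23 TPM in comparison cells (log2 ratio −2.07, SD 1.95). Cxcl14, a chemokine of the skin, stood at 94.49 against 281.4 TPM (−1.56, SD 1.45). Sepp1, the plasma selenium carrier, averaged 7.121, 12.87, 10.27, 20.13 and 31.54 TPM against 51.29, 50.3, 35.88, 59.3 and 48.98 TPM, and neither set of plate means reached the other (−1.53, SD 0.74). Creb5, a transcription factor, stood at 8.465 against 29.55 TPM, Vwa2 at 13.91 against 44.12 TPM and Robo2, a guidance receptor, at 7.524 against 23.64 TPM. Zbtb20, a zinc finger repressor, stood at 9.726 against 27.46 TPM (SD 0.31), Abcc5, an export pump, at 8.182 against 22.54 TPM (SD 0.26) and Nbl1, a BMP antagonist, at 10.78 against 28.22 TPM (SD 0.36), and these last 3 varied least over plates. Of the lower genes 35 (33.3%) were also called against matched comparison cells, and of the higher genes 98 (69%) were. Of all measured genes, 2.17% were called higher and 1.05% lower against the matched cells. All of both sets had the same sign there. The cycling cells are the same and the matched cells are part of the comparison cells behind the calls, so this is not a separate check.

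**Figure D5:**
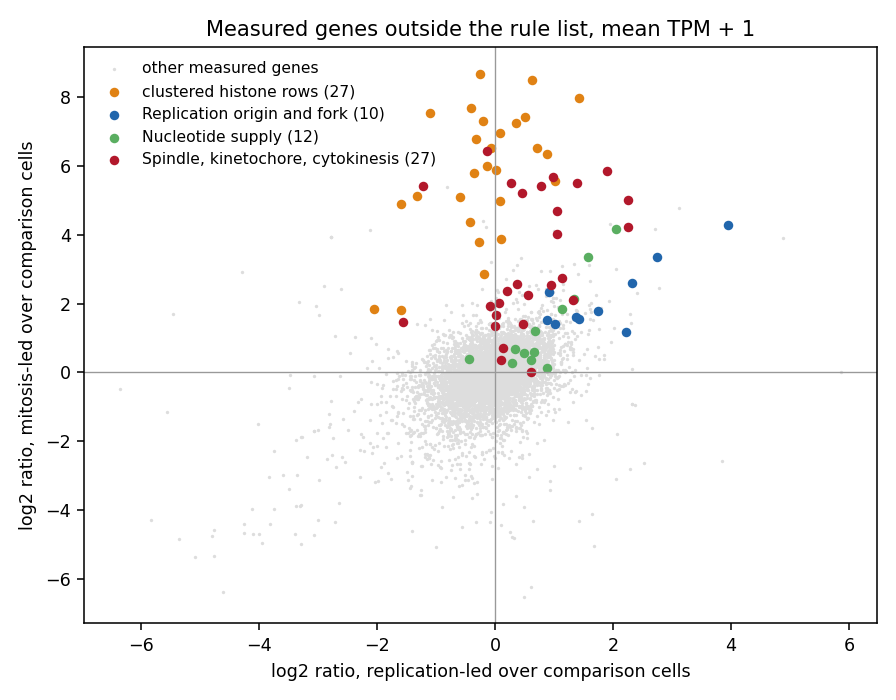
Each point is a measured gene outside the rule list, with the log2 ratio of mean TPM + 1 in replication-led over comparison cells on the horizontal axis and in mitosis-led over comparison cells on the vertical axis. Histone genes (orange) stand high on the vertical axis around 0 on the horizontal one, and replication genes (blue) are above 0 on both.

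The mitosis-led and replication-led cells were then each set against the comparison cells of their own plates, weighted by the cells of the subset on each plate. Of the higher genes, 76.8% passed the 1.5-fold rule upwards in mitosis-led cells and 41.5% (59 genes) in replication-led cells. Of all measured genes, 6.37% and 2.41% did. The higher genes were called from these same cells, so such shares were largely set in advance and are not separate evidence. Kinetochore genes passed in 4 of 6 against none, condensin, cohesin and cytokinesis genes in 11 of 12 against 2, and spindle genes in 8 of 9 against 3. The subsets were divided by their number of positive mitosis genes, and these lists hold other genes of mitosis. The division itself thus favours such genes in mitosis-led cells, and the counts are not separate evidence of a difference. Origin and fork genes passed in 6 of 10 in each, with medians of 1.69 and 1.59. Bulge genes were lower in 5 of 16 in each (medians −1.05 and −0.82). The subsets differ in size and depth, so a count in one and not in the other is not a tested difference.

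Cells of the Sca-1-negative gate held RNA of Ly6a, which encodes Sca-1, and more often so when cycling, a comparison made after the values were seen. Ly6a reached 10 TPM in 17 of 24 mitosis-led cells (70.83%, 48.91 to 87.38), 15 of 37 replication-led cells (40.54%, 24.75 to 57.9) and 45 of 188 comparison cells (23.94%, 18.03 to 30.69). Among comparison cells matched on detected genes it did in 18 of 61 (29.51%). They were matched to all cycling cells and not to the mitosis-led cells alone, so the part of detected genes in this was not tested. On cKO plate 1 it was 6 of 9 mitosis-led, 0 of 4 replication-led and 6 of 13 matched cells. Matching left a difference of 746 genes on that plate. On dKO plate 1 it was 6 of 7 in each subset and 4 of 14 matched cells. In the Sca-1-positive gate Ly6a was found in 17 of 21 comparison cells and 7 of 8 cycling cells.

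Markers of other cell types did not define the set. Ptprc, the pan-leukocyte gene, reached 10 TPM in 0 of 61 Sca-1-negative cycling cells, which allows a share of up to 4.918%, and 0 of 188 comparison cells, which allows up to 1.596%. At least 3 of 11 immune genes were positive in 2 of the 69 cycling cells and 4 of the 209 comparison cells. The summed immune TPM ran from 0 to 998.1 and from 0 to 1048. At least 1 immune gene was positive in 21 of the 69 and 28 of the 209, a larger share of cycling cells, and this was not tested. No cell of either kind had 3 or more fibroblast, melanocyte, endothelial and mural, Schwann or Merkel markers. Of these lists 2 immune genes and 1 each of fibroblast, melanocyte and endothelial genes were measured, and none passed the rule. These were Cd74 (23.54 against 12.7 TPM), H2-Ab1 (9.876 against 4.136 TPM), Col1a1 (10.76 against 7.692 TPM), Gpnmb (4.538 against 12.03 TPM) and Cspg4 (16.57 against 16.12 TPM). No Schwann or Merkel gene was measured. Cd74, of antigen presentation, was positive in 8 of 24 mitosis-led, 5 of 37 replication-led, 16 of 188 comparison and 10 of 61 matched cells, and its part in the results was not tested.

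Within cycling cells, dKO and cKO were compared by requiring a 2-fold ratio and no overlap of plate means, both in TPM and in log2(TPM + 1). Of all measured genes 1.85% were higher and 4.01% (278 genes) lower in dKO, beside 1.17% (81 genes) and 1.91% in comparison cells. The median of all genes was −0.18 in cycling and −0.13 in comparison cells, so the lower side is favoured. Cycling plates hold as few as 6 cells, which widens plate means. Of 406 genes called in cycling cells 36 (in the same direction) were among the 213 called in comparison cells, that is 8.87% of the former and 16.9% of the latter. The genotypes also differ in plates and in the share of Xist-carrying plates, and none of this can be told apart from genotype.

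Among genes with at least 20 TPM and 25% positive cells in the higher group, Creb5 had the highest ratio: dKO plate means were 16.29 and 24.23 TPM, those of cKO 1.178, 0 and 0.6206 TPM (log2 ratio 3.73). Its comparison cells held 34.43 and 42.13 TPM on dKO plates, and 25.67, 27.56 and 17.99 TPM on those of cKO. Fdps, of the mevalonate pathway, averaged 21.9 TPM in dKO against 4.408 TPM in cKO, and in comparison cells 17.14 against 5.76 TPM. Dvl2, which relays Wnt signals, averaged 6.345 and 29.37 TPM and Flrt3, an adhesion protein, 10.77 and 46.57 TPM. Neither was called in comparison cells, and the difference between the cell sets was not tested.

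A pair of markers of other cell types was called between the genotypes in both cell sets. Col1a1, a fibroblast collagen, was higher in dKO, with means of 25.74 against 0.7771 TPM in cycling cells (log2 ratio 3.91) and 13.61 against 3.748 TPM in comparison cells. Its dKO level in cycling cells came mostly from plate 2, at 46.63 TPM against 4.86 TPM on plate 1. H2-Ab1, of antigen presentation, was lower, with 0.6144 against 16.05 TPM in cycling cells (−3.40) and 1.244 against 6.064 TPM in comparison cells. Cd74 was at 10.75 against 32.07 TPM in cycling cells and was not called. The part of these in the genotype results was not tested.

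At the lower end, Acsbg1, an acyl-CoA synthetase, had means of 3.373 and 0.5627 TPM on dKO plates, against 62.04, 93.54 and 67.18 TPM on those of cKO (log2 ratio −4.66). It was lower in dKO comparison cells too, at 5.765 against 43.48 TPM. Cyp4b1, a cytochrome P450, stood at 8.095 TPM in dKO against 45.23 TPM in cKO cycling cells, and at 4.187 against 25.87 TPM in comparison cells. Aadac, an esterase, averaged 28.64 and 1.65 TPM in cycling cells and 8.115 and 5.001 TPM in comparison cells, and Nfkbiz, a nuclear modulator of NF-kB, 29.75 and 3.674 TPM, and 16.73 and 8.927 TPM. Of the named cell cycle genes outside the 22 rule genes, Pold1 passed the 2-fold rule between genotypes, at 23.33 TPM in dKO against 55.24 TPM in cKO. By that rule 4.01% of all measured genes were lower. Plate means of the genotypes also did not overlap for Lig1 (40.36 against 22.44 TPM), Dctpp1 (23.39 against 13.98 TPM) and Topbp1 (20.31 against 25.71 TPM), at less than 2-fold. For Gas1 the plate means in TPM did not overlap either, with 22.33 and 13.72 TPM in dKO above 1.873 to 9.186 TPM in cKO (log2 ratio 1.31). Those in log2(TPM + 1) did overlap, and Gas1 was not called. The share of all measured genes whose plate means do not overlap, whatever the ratio, was not counted. With so few plates the lack of overlap is therefore no result about Lig1, Dctpp1, Topbp1 or Gas1.

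The 6 cycling cells of the Sca-1-positive gate of cKO plate 3 were then examined for the same genes. They had no part in the ratios behind the calls, but kept cells of both gates entered the filter for measured genes. They were also chosen by the same rule genes, and 2 of them were mitosis-led, so their values are not an independent check. Against the 11 comparison cells beside them, 85.2% of the higher genes were above 0 (median log2 ratio 1.64), where the median of all measured genes was −0.06 and 44.7% of them were above 0. Racgap1 averaged 62.26 TPM and was listed at 0 in all 11 comparison cells, as were Kifc1 (39.69 TPM) and Foxm1 (50.18 TPM). Stmn1 stood at 106.4 against 7.448 TPM and Uhrf1 at 42.52 against 7.56 TPM. The lower genes had a median of −0.13, with 32 of them (30.5%) above 0. Lhx2, Tbx1, Ctgf and Tgm5 were listed at 0 in both kinds of cell in that gate.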

How the data were processed

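Single cells from back skin of 70-day-old mice were sorted into 96-well plates, amplified by Smart-seq2 and sequenced in paired-end mode, per the labels' protocols. The values are TPM as deposited by the authors, in a table of 46609 rows with 92 ERCC spike-ins. Bowtie2 2.2.9 and RSEM 1.2.30 and the builds mm10 and GRCm38 are given in the submitters' processing notes, while no source used here names the gene annotation behind the counts. TPM keeps no read depth, so the depth is unknown and detected genes stand in for it. Smart-seq2 has no molecular identifiers, and it does not mark strand, so antisense and overlapping genes cannot be told apart. Each column sums to 1000000, so a gene that takes much of a cell's RNA lowers the others. Doublets were not called, since cells were sorted singly.

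Cells were grouped by their genotype, gate and plate labels, and 6 cells with fewer than 1000 genes at 1 TPM were left out. Mean TPM with 1 TPM added was compared within plates (python 3.11.15, numpy 2.4.6, pandas 2.3.3, scipy 1.17.1 and matplotlib 3.10.9), after the steps were tested on simulated data. Intervals are exact binomial at 95%, and counts of 0 use 3 counts of the total. The weighting of the 2 subsets by their cells per plate was chosen after cell numbers were seen. Members and the 26 gene lists were chosen with earlier results of these data known.

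Named genes are the 22 rule genes and the 12 highest and 12 lowest ratios past the 2-fold rule with at least 20 TPM and 25% positive cells in the higher group, without predicted, mitochondrial, ribosomal protein or pseudogenes. To these were added up to 4 members of each list past the 1.5-fold rule (otherwise the 2 most abundant), the 4 highest and 4 lowest genes between genotypes, and the 4 NFI genes. Histone sums, Ly6a, Krt79 and Krt10 shares and the genes under other observations were chosen after their values were seen. Coordinates are from GENCODE vM21 (GRCm38) and promoters from RefSeq (GRCm38.p6, first listed promoter of each gene, matched for 93 higher and 70 lower genes). Alternatives changed the positivity threshold, the number of rule genes, the pseudocount, the filters, the weighting and the plates used.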

Additional observations from a re-analysis of the deposited data

Results flagged for a closer look

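For 4 named genes the cycling cells differed from comparison cells in 1 direction on all 3 cKO plates and in the other direction on both dKO plates. The difference between the genotypes was not tested, since each genotype is 1 sample, and plates with few cycling cells vary widely. These are 4 of 81 named genes (4.94%), beside 4.85% of all measured genes that show such opposite signs, so the share is near the background. Dvl2, Acsbg1 and Nfkbiz were named for their ratio between genotypes in cycling cells, which favours this pattern. Dvl2 had log2 ratios of −1.66, −0.87 and −1.34 in cKO and of 1.495 and 0.84 in dKO, a difference between the genotype means of 2.46. Nfia, an NFI family member that was not targeted, had 0.38, 0.59 and 0.50 in cKO and −0.11 and −0.44 in dKO (difference −0.76). For Acsbg1 the ratios were 1.62, 0.34 and 0.84 in cKO and −1.02 and −1.58 in dKO (difference −2.23), from dKO levels of at most 7.851 TPM. Nfkbiz had 0.08, 0.96 and 1.10 in cKO and −0.86 and −1.63 in dKO (difference −1.96).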

How the results depend on the processing

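No paired analysis was possible because no result comes from a test, and cycling and comparison cells were set against each other within plates from the start, except where plates were pooled. Called genes are given here as percentages of the 6925 genes of the main comparison, higher first and lower second, beside the main 2.05% and 1.52%. They were 0.982% and 0.289% with 10 TPM added, 5.43% and 3.78% with no filter on genes, and 0.477% and 0.347% among genes of 20 TPM. At 3-fold they were 0.982% and 0.607%, and at 1.5-fold 4.65% were higher. Removal of the ERCC and the 5 most abundant rows with rescaling gave 4.74% and 3.80%, mean log2(TPM + 1) 4.49% and 0.534%, and all plates pooled 3.39% and 4.59%. Lower genes were 0.852% with at least 3 rule genes and 0.679% over both gates. With at least 3 rule genes the shares of cycling cells were 27.32% (cKO) and 25.32% (dKO), and at 20 TPM the dKO share was 10.39%. Matching on detected genes left 256.9 more genes and a log2 RNA ratio of 0.30. Leaving out 1 plate at a time gave 2.11% to 3.08% higher and 1.95% to 2.69% lower genes, with 2.41% lower without cKO plate 3 and 2.69% without dKO plate 2, since fewer plates must share a direction. It gave shares of cycling cells of 16.1% to 22.06% in cKO and 15.05% to 18.03% in dKO, 729.4 to 960.6 more detected genes and log2 RNA ratios of 0.49 to 0.64. Chosen after seeing the data, plates with Xist RNA gave 4.27% and 4.19%, and plates without it 4.13% and 6.51%, again with fewer plates. Without mitosis-led cells, also chosen then, 2.46% were lower, and 7 named genes reversed, as only replication-led cells remained: Foxm1 (−0.92), Racgap1 (−0.30), Cdca3 (−0.99), H2afx (−0.20), Hist1h2ab (−1.03), Hist1h3b (−0.42) and Hist1h2ap (−0.078). Elsewhere the cause was not tested. Over all alternatives, named genes stayed within their spread over plates in 2060 cases and moved beyond it in 120, and list medians in 522 and 45. The read depth is unknown, which limits statements on genes listed at 0.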

Other observations

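Genes in no list, chosen after their values were seen, also differed on all 5 plates. Higher in cycling cells were Tcf19, a chromatin-binding protein, at 35.45 against 1.956 TPM, Kpna2, an importin, at 35.21 against 3.151 TPM, Nrm, of the nuclear envelope, at 55.58 against 8.437 TPM, and Wee1, the kinase that restrains Cdk1, at 12.88 against 4.137 TPM. RNA-processing genes were among them, with Snrpd1, of the spliceosome, at 27.74 against 7.779 TPM and Lsm2 at 25.93 against 8.097 TPM. So were genes of NF-kB and interferon signalling, with Nfkb2 at 21.16 against 8.918 TPM, Icam1 at 18.51 against 4.709 TPM, Tnfrsf18 at 55.39 against 22.01 TPM and Psmb9, an immunoproteasome subunit, at 27.07 against 10.49 TPM.

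Several secreted inhibitors and guidance factors were lower. Wif1, a Wnt antagonist, stood at 0.4792 against 13.36 TPM. It reached 10 TPM in 1 of 61 cycling cells, 34 of 188 comparison cells and 8 of 61 comparison cells matched on detected genes. Its comparison means were 21.55 and 31.26 TPM on the dKO plates but 3.594, 0.297 and 10.11 TPM on cKO plates 1 to 3. Sema3e stood at 2.973 against 18.16 TPM, Grem1, a BMP antagonist, at 3.128 against 11.51 TPM, and Tgfb3 at 2.268 against 11.51 TPM. Sema3e reached 10 TPM in 2 of 24 mitosis-led, 7 of 37 replication-led, 80 of 188 comparison and 20 of 61 matched cells. The clock repressors Cry2 (5.003 against 18.96 TPM) and Nr1d1 (7.837 against 17.56 TPM) were lower too. No list of these functions was tested.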
